A study of Mus musculus with 6 samples.

Results

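Aquaporins are the membrane channels for water, and here their transcripts were followed in mammary epithelial cells (MECs) lacking p53, 4 weeks after tamoxifen had been withdrawn. The 8 genes described are Aqp1, Aqp3, Aqp4, Aqp5, Aqp7, Aqp8, Aqp9 and Aqp11, out of 17418 genes that the arrays measure through a probeset with a single gene symbol. They were chosen by gene family with results of these arrays already known, among them the lower intensity of Aqp5 after tamoxifen. The difference in Aqp5 is therefore a description and not independent evidence, and its p-value only places it among all probesets. A further 4 family genes, Mip, Aqp2, Aqp6 and Aqp12, also have a probeset. Each of the 12 genes has exactly 1, so no choice between probesets was needed.

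The study profiled MECs from mammary outgrowths of Balb/c mice in which fragments of p53-null duct from 8-week-old donors had grown in the cleared fat pads of Balb/c hosts with wild type p53. In 3 tamoxifen pools the hosts had carried a 5 mg tamoxifen pellet under the skin for 13 weeks, and 4 further weeks passed between its removal and collection. In 3 control pools the hosts had carried a sham pellet. All mice of both groups received 100 ug of 17-beta-estradiol (E2) 8 h before collection, so every value is from E2 treated cells with or without past tamoxifen, an antagonist of the estrogen receptor in the mammary gland. The sample labels give 3 to 5 mice per pool, whereas the design text and the study give 5, and hosts aged 8 weeks when pellets went in, whereas the study's methods give a later age. The MECs were released by collagenase and hyaluronidase and washed to remove fat cells, with no sort described, and p53 was lost in the transplanted epithelium and not in the host's vessels, fat or blood cells. RNA of each pool was read on 1 Affymetrix array, and intensity is the deposited linear value of a probeset. Mean intensity per array was 395.1 to 403.4. Luminal epithelial markers were at 252.5 or above in every pool. Their summed intensity over 12 of 14 listed genes was 44648 to 46828 in tamoxifen pools and 45618 to 47876 in control pools.

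Aquaporins pass water along osmotic gradients through a pore in each of the subunits of a tetramer. Some of the family, the aquaglyceroporins Aqp3, Aqp7 and Aqp9, also pass glycerol, and several members pass hydrogen peroxide. In exocrine glands Aqp5 lies in the apical membrane of secretory cells, where water follows the salt that chloride and potassium channels move into the lumen. In the mammary gland, Aqp1 is known from capillary endothelium and Aqp3 from the basolateral membrane of epithelial cells.

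The sequences around the annotated starts of Aqp5 and Aqp3 are shown because these genes had the largest differences between the groups. They span 250 bases before to 50 bases after the start, are taken from RefSeq on the build GRCm38.p6, and are written on the gene's own strand. Capitals mark the estrogen response element half-site (GGTCA, either strand) and the GC box to which Sp1 binds (GGGCGG, either strand).
Aqp5, chr15:99590778-99591077, plus strand: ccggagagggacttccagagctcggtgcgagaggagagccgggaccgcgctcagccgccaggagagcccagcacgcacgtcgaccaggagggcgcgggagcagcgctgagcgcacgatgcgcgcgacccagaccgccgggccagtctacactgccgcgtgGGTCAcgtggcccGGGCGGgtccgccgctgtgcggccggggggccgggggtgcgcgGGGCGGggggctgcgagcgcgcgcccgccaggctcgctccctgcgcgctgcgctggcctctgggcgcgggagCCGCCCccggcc
Aqp3, chr4:41098134-41098433, minus strand: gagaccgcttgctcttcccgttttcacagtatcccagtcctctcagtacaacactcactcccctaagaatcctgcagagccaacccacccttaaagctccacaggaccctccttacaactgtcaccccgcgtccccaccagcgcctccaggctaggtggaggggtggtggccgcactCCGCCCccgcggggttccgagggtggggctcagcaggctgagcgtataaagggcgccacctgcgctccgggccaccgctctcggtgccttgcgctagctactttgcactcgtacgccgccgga
The Aqp5 window holds 1 half-site and 3 GC boxes, and the Aqp3 window 0 half-sites and 1 GC box. A half-site was present in 40.5% and a GC box in 35.7% of 32851 windows of this length, so either match is common. The full element (GGTCANNNTGACC, which contains half-sites) was in 0.0700% of the windows and in none of those of the 7 members examined, all but Aqp4. The windows of Aqp1 and Aqp8 hold 0 half-sites, that of Aqp11 holds 1, and Aqp7 and Aqp9, with 2 annotated starts each, have 1 and 2 and 0 and 2. A match of letters does not show that a receptor binds there.

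Aqp5 fell after tamoxifen and was the only member past the adjusted threshold. In pooled RNA, fewer cells of a type and less RNA per cell cannot be told apart. Its intensity was 459.8, 483.3 and 603.9 in the tamoxifen pools, against 1023, 1178 and 1369 in the control pools. The groups did not overlap, and the highest tamoxifen pool stood well under the lowest control pool. The mean was 515.7 ± 77.3 after tamoxifen and 1189.9 ± 173.4 in controls (SD, n = 3 pools each), and the geometric mean after tamoxifen was 43.3% of that in controls. The log2 fold change was -1.21 (SE 0.15, 95% interval -1.57 to -0.85). Fitted with limma across all 22369 probesets, the adjusted p was 0.0431. In this fit 1 of the 8 members was called lower, beside 0.107% of all probesets, and 0 were called higher, beside 0.282%. The smallest p that exact permutation allows with 3 pools a group is 0.1. The call was kept in 9 and lost in 8 of 17 alternatives, with a log2 fold change of -1.33 to -1.10 and an adjusted p of 0.0158 to 0.198, and it was lost with the methods' t-test once its p-values were adjusted over all probesets, with a replicate block and with any 1 pool left out (limma adjusted p of 0.0899 to 0.184). The methods themselves set an unadjusted p under 0.01 with a fold over 1.4. They report an estimated false discovery rate under 0.05 for that set, taken over probes with a fold over 1.4 and not over all probesets. At that threshold the methods' t-test called Aqp5. By that rule 1 of the 8 members was lower, beside 0.308% of all probesets, and 0 were higher, beside 0.832%.

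**Figure D1:**
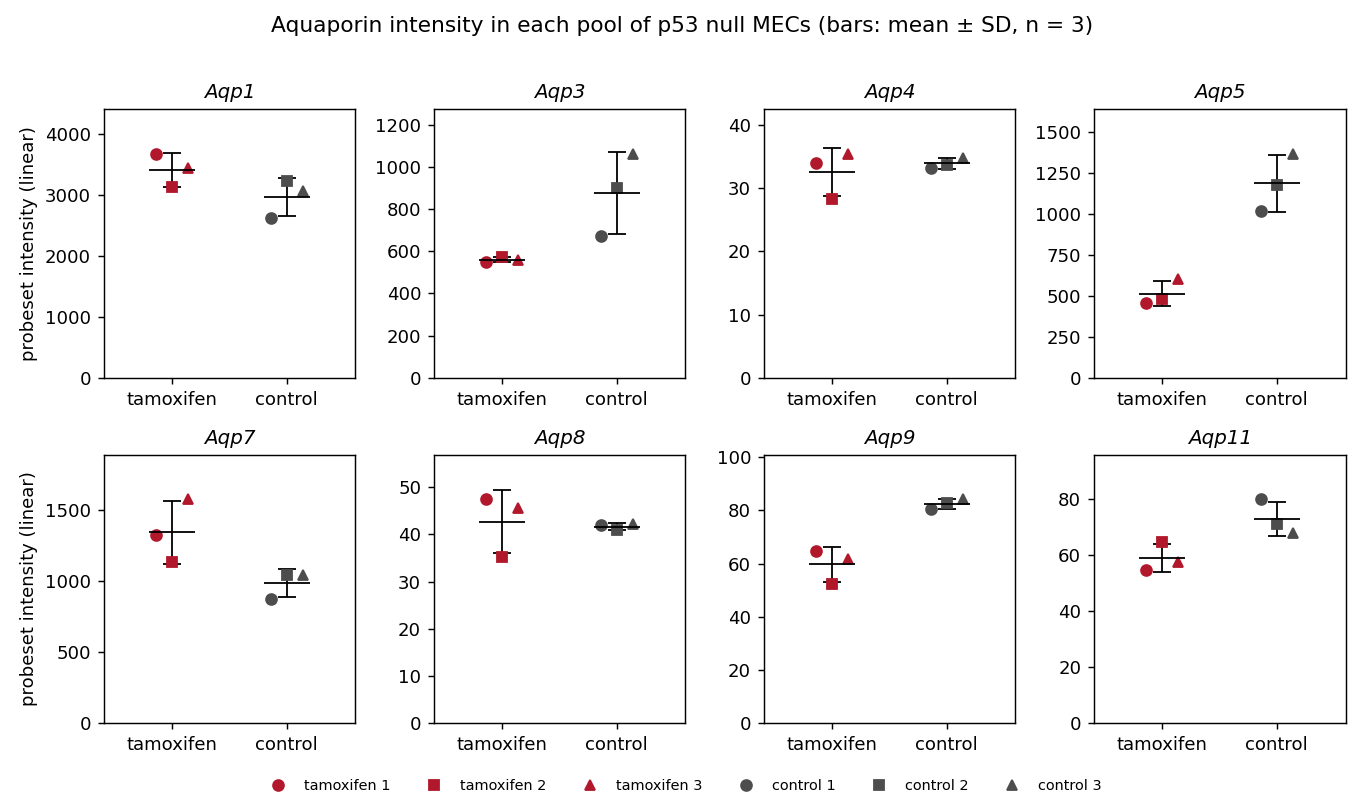
Linear probeset intensity of the 8 aquaporins, with 1 point per pool (circle, square and triangle for pools 1, 2 and 3), and mean ± SD of 3 pools as bars; each panel has its own axis from 0. All tamoxifen pools lie below all control pools in Aqp5, Aqp3, Aqp9 and Aqp11, all lie above in Aqp7, and the groups overlap in Aqp1, Aqp4 and Aqp8.

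The aquaglyceroporins differed in sign from each other, and none of them passed the adjusted threshold. Aqp3, a channel for water, glycerol and peroxide of epithelial and skin cells, had intensities of 550.6, 572.6 and 558.2 in the tamoxifen pools, against 673.2, 898.1 and 1061 in the control pools. The tamoxifen pools were nearly equal and below every control pool, whereas the controls spread widely. On the log2 scale the SD was 0.03 among tamoxifen pools and 0.33 among control pools. The log2 fold change of Aqp3 was -0.62 (SE 0.16, 95% interval -1.02 to -0.23, limma adjusted p = 0.226), and it was -0.80 without control 1 and -0.47 without control 3.
Aqp7 is the glycerol channel through which fat cells release glycerol during lipolysis. Its intensity was 1320.4, 1131 and 1571 after tamoxifen, against 873.9, 1042 and 1042 in controls. Every tamoxifen pool was above every control pool, by the least in tamoxifen 2. The log2 fold change was 0.44 (SE 0.14, 95% interval 0.09 to 0.78, limma adjusted p = 0.31).
Aqp9, a channel of hepatocytes and white blood cells, was dim, at 64.8, 52.4 and 61.9 in the tamoxifen pools, against 80.5, 82.7 and 84.1 in the control pools. Here the controls lay close together and the tamoxifen pools were all lower, with a log2 fold change of -0.47 (SE 0.10, 95% interval -0.70 to -0.24, limma adjusted p = 0.141). With an offset of 32 added to the intensities the difference was -0.32.
Aqp3 and Aqp7 are annotated next to each other on chromosome 4, with no other protein-coding gene between them, and their differences had opposite signs. The other neighbours examined all had the sign of Aqp3 and smaller differences. Log2 fold changes were -0.03 in Chmp5, -0.18 in Nfx1, -0.16 in Nol6, -0.17 in Ube2r2 and -0.15 in Ubap2 (limma adjusted p of 0.385 to 0.917).

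The water channel of blood capillaries and red cells, Aqp1, overlapped between the groups. It stood at 3670.3, 3122 and 3434 in the tamoxifen pools and at 2619, 3222 and 3058 in the control pools. The lowest value was that of control 1. The log2 fold change was 0.20 (SE 0.11, 95% interval -0.06 to 0.46, limma adjusted p = 0.519), so a difference of up to 0.46 upward lies within the interval.
Aqp4, the channel of astrocyte end-feet and fast muscle fibers, stood at 33.9, 28.2 and 35.4 after tamoxifen and 33.2, 33.6 and 34.8 in controls. Its log2 fold change was -0.07 (95% interval -0.31 to 0.18, limma adjusted p = 0.857).
Aqp8, a channel of exocrine glands, colon and mitochondria, stood at 47.4, 35.1 and 45.6 after tamoxifen and at 41.9, 40.8 and 42.2 in controls. Its log2 fold change was 0.02 (95% interval -0.27 to 0.32, limma adjusted p = 0.96). In both of these genes the tamoxifen 2 pool was the lowest of all 6, the groups overlapped, and the sign turned with single pools left out.
Aqp11, an intracellular member known from the endoplasmic reticulum, stood at 54.9, 64.8 and 57.5 in the tamoxifen pools, against 80.0, 71.1 and 68.1 in the control pools. The groups were close but did not overlap, and the log2 fold change was -0.31 (SE 0.10, 95% interval -0.55 to -0.07, limma adjusted p = 0.307).
The table carries no detection calls, so whether the intensities of Aqp4, Aqp8, Aqp9 and Aqp11, all below the median of the probesets, stand for expression cannot be read from it.

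**Figure D2:**
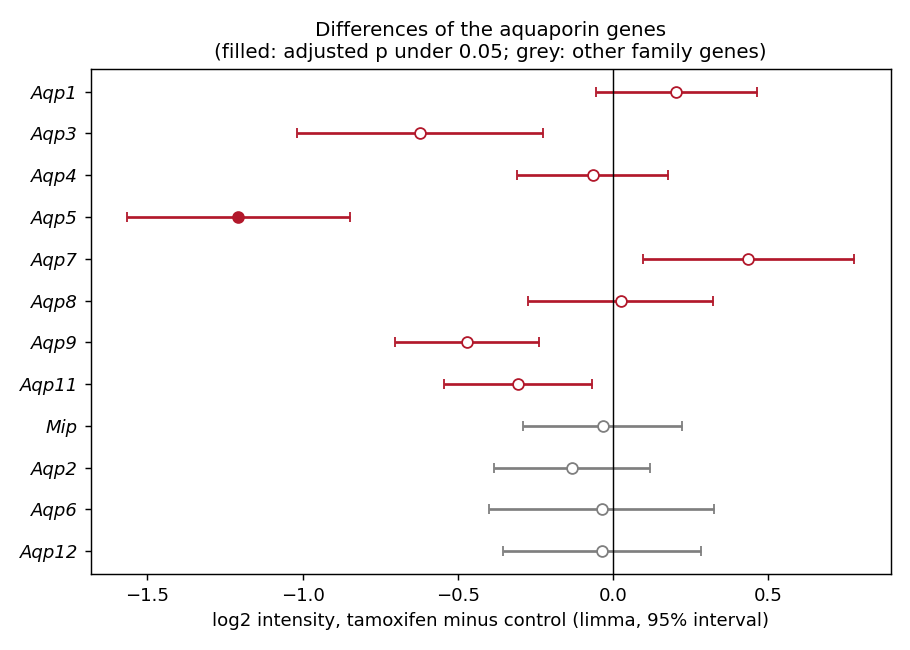
Log2 intensity in tamoxifen pools minus that in control pools for 12 aquaporin genes, from limma, with 95% intervals; red points are the 8 genes described, grey points the other 4, and a filled point has an adjusted p under 0.05. Aqp5 at -1.21 is the only filled point, and the intervals of Aqp3, Aqp9, Aqp11 and Aqp7 lie on 1 side of 0.

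At an unadjusted p under 0.05, 4 of the 8 members (Aqp3, Aqp5, Aqp9 and Aqp11) were lower, beside 5.87% of all probesets, and 1 (Aqp7) was higher, beside 6.55%. The same 4 were lower without overlap between the groups, beside 11.2% of probesets, and the same 1 was higher without overlap, beside 9.79%. Since the family was chosen with results known, these counts are descriptions. The median log2 fold change was -0.19 over the 8 members and -0.02 over all probesets.
The control 1 pool was the lowest control in 6 of the 8 members, Aqp5, Aqp3, Aqp7 and Aqp1 among them, but by little in Aqp4 and Aqp9. How many of all probesets share this order was not counted. Control 1 also carried the highest summed intensity of 17 cell cycle genes (7778, beside 4341 and 3814 in the other controls and 2456 to 3207 in tamoxifen pools). The part of this in the aquaporin values was not tested. Without control 1 and tamoxifen 2, the arrays to which limma gave the lowest weights, the log2 fold change of Aqp5 was -1.27 (limma adjusted p = 0.182), and 0 members passed.

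None of the remaining family genes passed the threshold, and all their intervals span 0. Mip, the lens aquaporin, had a log2 fold change of -0.03 (95% interval -0.29 to 0.22, limma adjusted p = 0.936), and Aqp12, a pancreatic acinar member, had -0.04 (95% interval -0.36 to 0.28, limma adjusted p = 0.943). Aqp2, the vasopressin-regulated channel of the kidney collecting duct, stood at 182.3, 147.2 and 163.5 in tamoxifen pools and 193.6, 167.3 and 178.5 in control pools (log2 fold change -0.13, limma adjusted p = 0.685). Aqp6, an intracellular channel of kidney intercalated cells, stood at 45.5, 30.3 and 38.4 in tamoxifen pools and 39.7, 39.3 and 36.7 in control pools (log2 fold change -0.04, 95% interval -0.40 to 0.33, limma adjusted p = 0.949). Aqp2 and Aqp6 are the protein-coding genes on either side of Aqp5 on chromosome 15, so within this cluster the groups stood apart in Aqp5 and overlapped in both neighbours. Faim2, an inhibitor of Fas-mediated cell death that lies on the far side of Aqp2, stood at 77.3, 55.2 and 79.6 in the tamoxifen pools, against 128.0, 125.9 and 127.9 in the control pools, without passing (log2 fold change -0.87, limma adjusted p = 0.0958). Racgap1, a cytokinesis gene beyond Aqp6, had -0.87 (limma adjusted p = 0.363), with control 1 the highest pool at 324.7. Bcdin3d and Asic1, the outermost genes examined, had -0.10 and -0.04.

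No gene that moves ions and water beside Aqp5 in secretory epithelia passed the threshold. Of 25 listed, 22 were measured, and limma called 0 higher and 0 lower. Before adjustment 4 of them were higher and 2 lower at p under 0.05, beside 6.55% and 5.87% of all probesets. The same shares stand beside the unadjusted counts of every list below. The median log2 fold change of the list was -0.02, as over all probesets. Car2, a carbonic anhydrase that supplies bicarbonate and protons, stood at 466.3, 505.3 and 403.0 in the tamoxifen pools, against 677.9, 895.5 and 695.7 in the control pools (log2 fold change -0.72, limma adjusted p = 0.129). Kcnn4, the calcium-activated potassium channel of gland cells, had -0.34 (limma adjusted p = 0.266), and Trpv4, an osmosensitive calcium channel known to act with Aqp5, had 0.42 (limma adjusted p = 0.208). The Trpv4 intensity was 371.7, 304.3 and 331.6 after tamoxifen and 229.2, 257.3 and 266.7 in controls, without overlap and with the opposite sign to Aqp5.
Of 13 measured genes of 15 for glycerol and lipid handling, limma called 0 higher and 0 lower, before adjustment 3 were higher and 2 lower, and the median was 0.08. Gpd1, which links glycerol phosphate to glycolysis, had a log2 fold change of -0.45 (limma adjusted p = 0.144), whereas the fatty acid carrier Cd36 had 0.24 (limma adjusted p = 0.305). Of 15 measured genes of 19 for peroxide handling, limma called 0 higher and 0 lower, before adjustment 1 was higher and 0 lower, and the median was -0.0011. The one higher was Nox4, an oxidase that makes hydrogen peroxide, at 0.32 (limma adjusted p = 0.257).

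Several aquaporins are expressed in cells other than epithelium. The summed intensity of adipocyte markers was higher in the same pools as Aqp7. All 12 measured markers of 15 had a positive log2 fold change (median 0.26), limma called 0 of them, and before adjustment 5 were higher and 0 lower. Their summed intensity was 7802 to 9048 in tamoxifen pools and 5955 to 6859 in control pools, and without Car3, the brightest of them, 2982 to 3542 in tamoxifen pools and 2702 to 2958 in control pools. Plin4, a lipid droplet protein, had a log2 fold change of 0.49 and Cidec, another, 0.57 (limma adjusted p = 0.122 and 0.147). The part of fat cells in the Aqp7 values was not tested.
Endothelial markers lay beside Aqp1. Of 15 markers, 13 had a positive log2 fold change (median 0.23), and limma called 0 of them. Before adjustment 8 were higher and 0 lower, beside 6.55% and 5.87% of all probesets. Their sum was 21657 to 23159.8 in tamoxifen pools and 16789 to 19969 in control pools, lowest in control 1, as Aqp1 was. Plvap, a protein of capillary fenestrae, had 0.48 (limma adjusted p = 0.143). The part of vessels in the Aqp1 values was not tested. Red cell markers summed to 707.6 to 743.8 after tamoxifen and 653.4 to 676.8 in controls (6 measured of 8, median 0.03), without overlap. Of the 6, 4 were positive and 2 negative, and before adjustment 1 was higher and 0 lower. Most of that sum was Tfrc, which overlapped between the groups, and Alas2 (log2 fold change 0.17 and 0.23), whereas Slc4a1 had -0.12. No sum without Tfrc or Alas2 was taken.
For Aqp9, neutrophil markers went the other way in sum, at 6349 to 6580.0 in tamoxifen pools and 3412 to 5525 in control pools (11 measured of 12, median -0.0015). Most of that sum was Ltf, lactoferrin, which mammary epithelium also makes. Without it the other 10 markers, several of them dim, summed to 534.2 to 672.6 in tamoxifen pools and 556.7 to 641.8 in control pools, with overlap. The part of neutrophils in the Aqp9 values was not tested.
For Aqp4, skeletal muscle markers summed to 810.7 to 952.6 in tamoxifen pools and 816.2 to 849.3 in control pools (11 measured of 12, median 0.09). Glial markers summed to 3643 to 3965 in tamoxifen pools and 3548 to 3733 in control pools (7 measured of 9, median 0.12). That sum joins markers of opposite sign, 5 positive and 2 negative, and before adjustment 3 were higher and 1 lower. Mbp had 0.60 and S100b 0.34 (limma adjusted p = 0.182 and 0.161), whereas Erbb3 had -0.37 (limma adjusted p = 0.146).
For Aqp3, keratinocyte markers summed to 3885 to 4183 in tamoxifen pools and 3099.6 to 3388 in control pools (11 measured of 14, median 0.04), and Krt4, a keratin of stratified epithelia, made up most of the gap. Krt4 rose, at 806.4 ± 101.5 after tamoxifen and 63.2 ± 12.8 in controls (SD, n = 3 each, log2 fold change 3.69, limma adjusted p = 0.00139). The other 10 summed to 3167 to 3388 in tamoxifen pools and 3030.3 to 3339.7 in control pools, and most of that was Sfn. Over the whole list 6 log2 fold changes were positive and 5 negative, and before adjustment 1 gene was higher and 2 lower. The 2 lower were Krt15 at -0.92 and Dsg3 at -0.55 (limma adjusted p = 0.115 and 0.267), with the sign of Aqp3. No marker of any of these lists was at 0 in any pool.

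**Figure D3:**
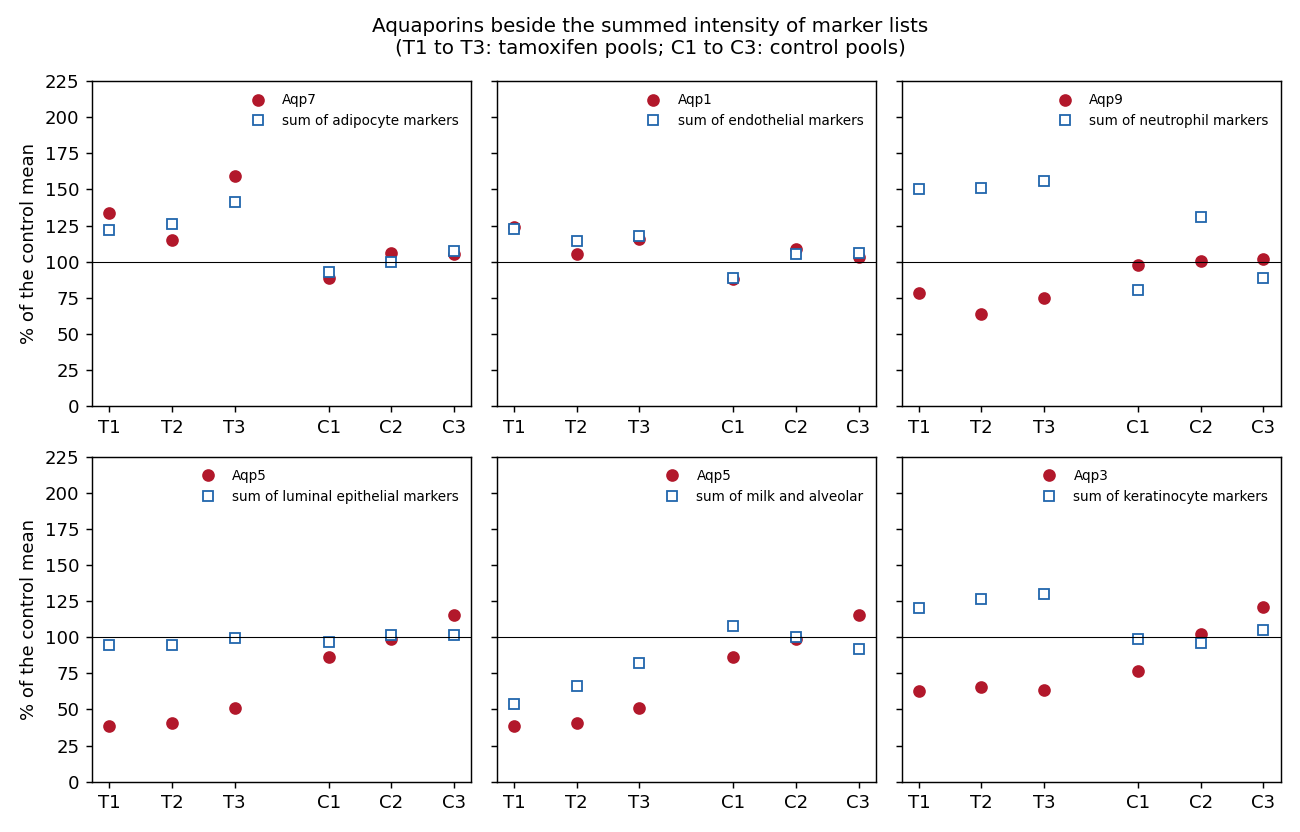
Each aquaporin (filled red circles) beside the summed intensity of a list of markers (open blue squares), both as percent of their own mean over the 3 control pools, with tamoxifen pools T1 to T3 left of control pools C1 to C3. Aqp7 and the adipocyte markers are both above their control pools in all tamoxifen pools, and Aqp5 lies below the luminal markers in all tamoxifen pools.

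Beside Aqp5, the luminal markers overlapped between the groups in sum and had a median log2 fold change of -0.09, with 0 called by limma, and 1 higher and 2 lower before adjustment. Aqp5 was lower in pools whose luminal marker total was 96.3% of that in controls. The bright genes Krt18 and Cldn4 led that total, and the part of luminal cells in the Aqp5 values was not tested. Prom1, a surface protein of hormone-sensing luminal cells in the mouse, had -0.85 (limma adjusted p = 0.225), at 252.5, 264.3 and 260.7 after tamoxifen and 322.2, 574.5 and 551.7 in controls. Cldn3 had -0.39 (limma adjusted p = 0.36), whereas Elf3 had 0.36 (limma adjusted p = 0.327), the opposite sign to Aqp5. The Elf3 intensity was 1380, 1388 and 1491 after tamoxifen and 926.2, 1203 and 1216 in controls, without overlap. Of the measured luminal markers 4 were positive and 8 negative. Basal epithelial markers had a median of -0.03 over 12 genes, and fibroblast markers -0.03 over 10, with 0 called in either. The cell cycle genes, 17 measured of 19, were all negative (median -0.86), with 0 called and 12 lower before adjustment.
The sum of milk and alveolar genes was lower in the tamoxifen pools, as Aqp5 was, with 13 of 15 measured genes of 17 negative and a median of -0.34. None was called by limma (0 higher and 0 lower), and before adjustment 1 was higher and 7 lower. Their sum was 15166 to 23161 in tamoxifen pools and 25777 to 30282 in control pools. From control 1 to control 3 it fell (30282, 28224 and 25777) while Aqp5 rose, whereas both rose from tamoxifen 1 to tamoxifen 3. Most of the gap lay in the caseins Csn2, Csn1s1 and Csn1s2a (means of 2219, 1506 and 643 after tamoxifen, 6542, 3601 and 1912 in controls). No sum without them was taken, and the part of alveolar cells in the Aqp5 values was not tested. Elf5, a transcription factor of alveolar and luminal progenitor cells, had -0.70 (limma adjusted p = 0.258) and Lalba, the milk protein alpha-lactalbumin, -1.06 (limma adjusted p = 0.299).

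The genes whose log2 intensity was most like that of Aqp5 over the 6 arrays, among 17406 genes outside the family, were Tox3, Ccdc130 and Sh3d19, with Pearson's r of 0.994, 0.993 and 0.992. Likeness over 6 arrays is a description, since the arrays share the group difference and a search of so many genes can find high values without any link. Tox3, a nuclear protein gene, also fell, with a log2 fold change of -0.72 (limma adjusted p = 0.0431), whereas Ccdc130 had a log2 fold change of -0.09. The pattern of Aqp3 was most like those of Nek7, Tle1 and Gm5787 (r = 0.997, 0.996 and 0.992), that of Aqp7 most like those of Lrrc36, Stard9 and Efna1 (0.99, 0.99 and 0.988), and that of Aqp9 most like those of 0610040J01Rik, Cdcp1 and Krtcap3 (0.999, 0.993 and 0.993). Nearest to Aqp11 were Ddost, a subunit of the oligosaccharyltransferase of the endoplasmic reticulum (r = 0.999), Eif2ak3, a kinase that senses unfolded protein (r = 0.996), and Aimp1, a scaffold protein of aminoacyl-tRNA synthetases (r = 0.994). Aqp1 was most like Shank3, Astn1 and Sbds (r = 0.994, 0.993 and 0.992). The dim gene Aqp4 was most like Spen, Tbx4 and Prss48, and Aqp8 most like Tgm3, Myt1 and Zc3h8.
Among the members themselves, Aqp5 had an r of 0.918 with Aqp3 and 0.917 with Aqp9, and Aqp7 had an r of 0.84 with Aqp1 and -0.92 with Aqp11, again over 6 arrays that share the groups.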

How the data were processed

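Gene expression was measured on 6 Affymetrix mouse arrays, 3 for tamoxifen and 3 for control pools of p53 null MECs. Groups and replicate numbers come from the sample titles. The authors deposited linear probeset intensities. MAS5 and mm9 appear in the submitters' processing notes without a stated role. Background correction and scaling of the arrays are steps not given in the sources used here, so neither was redone. The labels name a Mouse Exon array and the methods a Mouse Gene array. How a probeset sums its probes and how arrays were scaled could shift dim genes most.

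Gene symbols were taken from the 18286 of 22369 probesets with 1 annotated symbol, of which 18097 had their Entrez ID in the RefSeq table of GRCm38.p6. Coordinates on that build are given for promoters only, and neighbours are its protein-coding genes. The brightest probeset over all arrays stands for a gene.

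The log2 of each intensity, without offset or filter, was fitted by group alone in limma 3.58.1 (R 4.3.3), which gave 6.35 total degrees of freedom. P-values are two-sided, with Benjamini-Hochberg adjustment across the whole table and a threshold of 0.05. On simulated arrays of 22369 probesets, 73 of 100 changes of 1 and 92 of 100 changes of 2 on the log2 scale were recovered, with 6 false calls. The simulated noise was normal and independent, with SDs shuffled among probesets. It therefore holds no links between genes and no outlying pools, and does not measure how reliable the calls here are. Tables and plots used Python 3.11.15.

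The members and the 15 gene lists were chosen with earlier results of these data known, and lists are described by counts and medians with no set test. Named genes were drawn from the family, list members past the threshold with up to 3 others of smallest p, the closest patterns and the neighbours of Aqp5. Not every list member that met this rule is described, Stat5a, Igfbp2, Myh11 and Mylk among those left out. Genes that led the sum of a list, such as the caseins and Krt18, were named besides. The neighbours of Aqp3, the patterns between members and the sums without a leading gene were chosen after values were seen. Nothing says whether pools are of separate cohorts, so p-values measure the spread between these pools. The number of arrays limits the precision.

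Of the 17 alternatives, 6 left out 1 array each. The others were quantile normalization or median centring, a replicate block, array weights, a robust fit with a variance trend, the methods' t-test (equal variance, adjusted by Benjamini-Hochberg here), an offset of 32, removal of probesets under the 25th percentile or under the median, and a gene's brightest probeset or the mean of its probesets. Leaving out control 1 and tamoxifen 2 together, and the t-test at the methods' own threshold, were added later. The methods name a t-test for group comparisons but do not say which test gave the array p-values.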

Additional observations from a re-analysis of the deposited data

How the results depend on the processing

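The count of aquaporins called, 1 in the fit of all arrays, was 0 with the methods' t-test after Benjamini-Hochberg adjustment, 1 (Aqp5) with that test at the methods' own threshold of an unadjusted p under 0.01 and a fold over 1.4 (added after the data were seen), 0 with a replicate block, 0 without control 1 and tamoxifen 2 (added after the data were seen) and 0 to 0 with any 1 pool left out, and 3 (Aqp3, Aqp5 and Aqp9, all lower) with array weights. The genes of the transport, glycerol and peroxide lists called, 0 in that fit, were 2 (Car2 lower and Cidec higher) with array weights. Those of the milk, cell type and proliferation lists, 1 (Krt4) in that fit, were 0 with the adjusted t-test, 3 (Krt15, Krt4 and Plin4) at the methods' threshold, 7 with array weights (5 higher, 2 lower), 0 without control 1 and tamoxifen 2, and 1 to 2 with 1 pool left out, the 2 without control 1, where Prom1 was also called. Over all probesets the count was 87 and ranged from 15 with the replicate block to 519 with array weights, and it was 4 without control 1 and tamoxifen 2 and 255 (186 higher, 69 lower) at the methods' threshold. Array weights lean on the arrays closest to their group, and the cause of the extra calls was not tested.

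The sign held under every alternative for Aqp5, Aqp3, Aqp9, Aqp11, Aqp7, Aqp1 and Aqp2. With array weights the log2 fold change was 0.0153 in Aqp4 and 0.0211 in Aqp6. Without control 1 and tamoxifen 2 it was 0.019 in Aqp4, 0.0423 in Mip, 0.139 in Aqp6 and 0.0765 in Aqp12. With 1 pool left out it ranged from -0.13 to 0.0335 in Aqp4, -0.057 to 0.16 in Aqp8, -0.11 to 0.06 in Mip, -0.18 to 0.12 in Aqp6 and -0.16 to 0.0902 in Aqp12. A filter at the median of intensity removed Aqp4, Aqp8, Aqp9, Aqp11, Mip, Aqp6 and Aqp12, and one at the 25th percentile removed Aqp4 and Aqp6, so these have no value there. Under the replicate block Aqp5 had a limma adjusted p of 0.06. Over all probesets the deviations of same-numbered pools had an r of 0.05, 0.01 and -0.04. Whether the numbers pair the pools cannot be read from these values, since a shared cohort could affect only some genes.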
